A study of Mus musculus with 9 samples.

Results

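The proteases and prohibitins of the mitochondrial inner membrane form a set of 7 genes, Afg3l1, Afg3l2, Spg7, Yme1l1, Htra2, Phb and Phb2, chosen by gene symbol from the 54532 genes of the table, each symbol matching 1 row. Their RNA was measured by sequencing in 9 libraries titled spermatocytes and labelled male germ cells, aged PD 35, in 3 groups of 3. The controls were labelled WT, and in the other groups ClpP or ClpX was knocked out with Stra8-Cre (labelled ClpP cKO and ClpX cKO), a Cre line that acts in male germ cells from the spermatogonial stage. Strain, method of cell isolation, origin of the replicates and whether the controls carried Cre or floxed alleles are not given in the sources used here, and p-values therefore cover no more than the spread among these libraries, which may be technical.

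The protease ClpP works in the mitochondrial matrix on proteins that the ATPase ClpX unfolds and passes on to it. Beside this soluble system, the inner membrane has its own ATP-driven proteases. AFG3L1, AFG3L2 and paraplegin (Spg7) build the m-AAA protease, whose active site faces the matrix, while YME1L (Yme1l1) builds the i-AAA protease on the other face. HTRA2 is a serine protease of the intermembrane space, and the prohibitins Phb and Phb2 form ring-shaped scaffolds around which the m-AAA protease assembles. In the male germ line, mitochondria change shape through meiosis and are packed around the sperm midpiece in late spermatids. The comparisons address how the RNA of these 7 genes stood in libraries, labelled male germ cells, in which either part of the ClpXP protease was targeted.

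The libraries held 14334436 to 17021685 gene reads, and both ends of this range were controls. Levels are given in FPKM, reads relative to gene length and library size. Clpp was lower in every ClpP cKO library (3.69 to 6.15 FPKM) than in the controls (8.46 to 9.36 FPKM), and Clpx was at 11.3 to 15.6 FPKM in ClpX cKO against 54.7 to 59.3 in the controls. The targeted RNAs were thus lower but not absent. Each gene also differed in the other knockout, with Clpx at 36 to 40.3 FPKM in ClpP cKO (-0.58 on the log2 scale, adjusted p = 0.0088, but 0.061 under quantile normalization) and Clpp at 12.5 to 14.1 FPKM in ClpX cKO (0.49, adjusted p = 0.014). Counts are also given without Control 3 and ClpX cKO 1, which lay away from the other libraries of their groups. Markers of somatic cells were also detected, and 12 Sertoli cell markers summed to 490 to 520 FPKM in controls, 700 to 772 for ClpP cKO and 869 to 1200 for ClpX cKO. Of the 11 that could be tested, 11 rose in either knockout (median log2 change 0.55 and 0.99). Other somatic lists were less uniform. Of 8 Leydig cell markers, 0 passed in ClpP cKO and 2 rose in ClpX cKO. Of 7 peritubular and stromal markers tested, 2 and 5 rose. The 10 elongating spermatid markers summed to 7800 to 17300, 4490 to 5380 and 1590 to 2450 FPKM, and 10 of 10 fell in either knockout (median -1.28 and -2.33). Of 10 pachytene and diplotene markers, 6 fell in ClpP cKO and 7 in ClpX cKO, and none rose. Of 10 early meiotic prophase markers, 6 rose in either knockout and none fell. None of the genes on these marker lists was at 0 in any library. In such bulk libraries, fewer cells of a type and less RNA per cell cannot be told apart, and the part that cell shares have in the results below was not tested.

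Members moved in both directions in either knockout. In ClpX cKO, Htra2, Phb2 and Afg3l2 rose, Yme1l1 and Afg3l1 fell, and Spg7 and Phb did not pass. In ClpP cKO, Htra2 and Afg3l2 rose, Yme1l1 and Afg3l1 fell, and Phb2, Spg7 and Phb did not pass. A gene was called at an adjusted p (limma, Benjamini-Hochberg over 17266 genes) under 0.05. Thus 4 of 7 members were called in ClpP cKO, where 44.7% of all tested genes were, and 5 of 7 in ClpX cKO, where 65.6% were. By direction, 2 rose and 2 fell in ClpP cKO, against 20.7% and 24% of all tested genes, and 3 rose and 2 fell in ClpX cKO, against 32.1% and 33.5%. For 4 and 5 members the knockout and control ranges were apart, as was so for 61.7% and 69.8% of all tested genes. Shares of this size are near those of all genes and are no result about the members, so that their directions and sizes are described here. Their median log2 change was 0.03 in ClpP cKO (0.015 over all tested genes, 0.077 over the protein-coding ones) and 0.08 in ClpX cKO (-0.001 and 0.107). Without Control 3 and ClpX cKO 1, 1 member rose and 2 fell in ClpP cKO, and 3 rose and 2 fell in ClpX cKO.

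**Figure D1:**
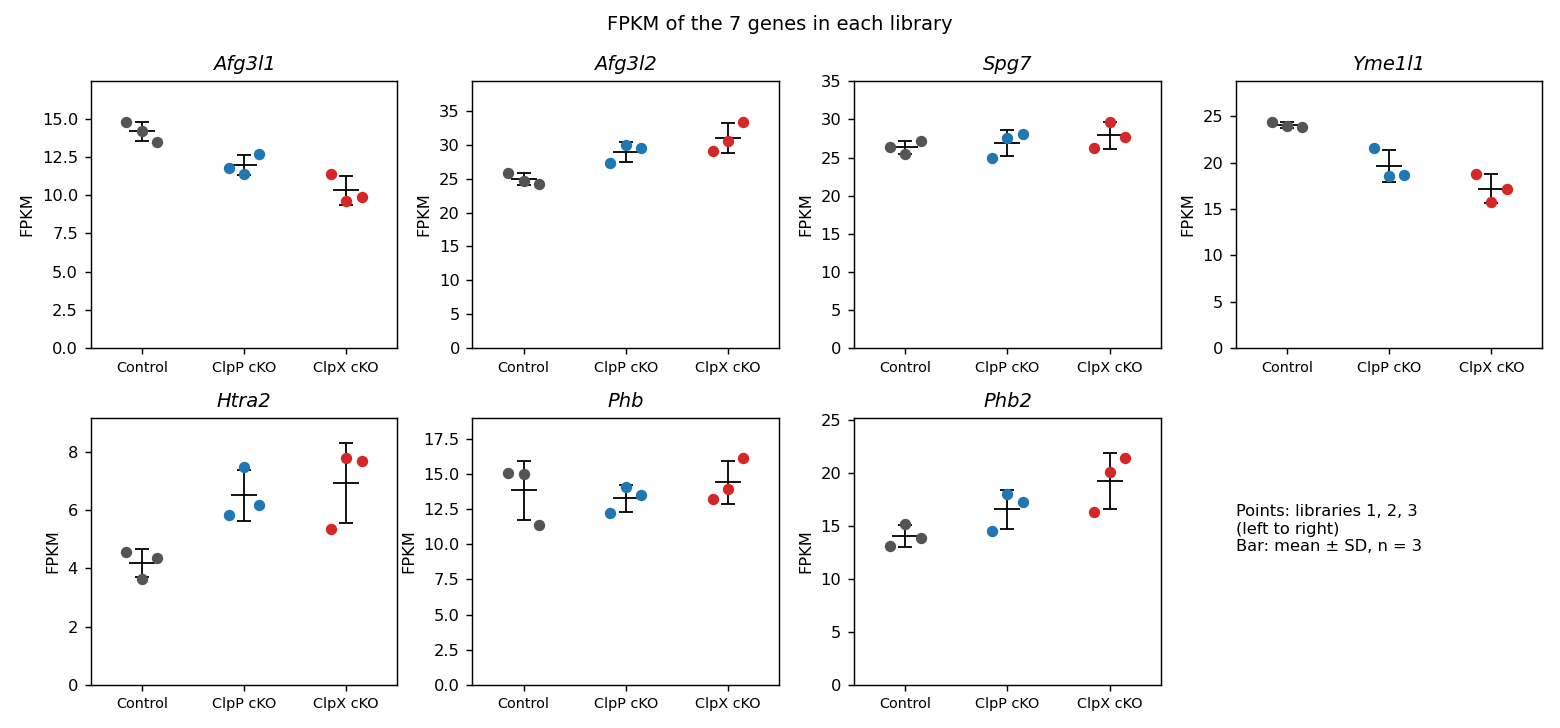
FPKM of the 7 genes (vertical axes) in each of the 9 libraries, grouped by genotype. Points are libraries and bars show mean ± SD (n = 3). Afg3l1 and Yme1l1 lay lower in both knockouts than in every control, Afg3l2 and Htra2 lay higher, and the Phb groups overlapped.

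The m-AAA subunits are described first. Afg3l1 (ENSMUSG00000031967, GRCm38 chromosome 8, 123477903 to 123503916, plus strand) encodes a subunit that can form m-AAA complexes in mice, whereas the human gene is a pseudogene. Controls gave 14.8, 14.2 and 13.5 FPKM, ClpP cKO gave 11.8, 11.4 and 12.7, and ClpX cKO gave 11.4, 9.63 and 9.91. Every knockout library was thus below every control. The level was 0.856-fold that of the controls in ClpP cKO (-0.22 on the log2 scale, SE 0.08, adjusted p = 0.048) and 0.746-fold in ClpX cKO (-0.42, SE 0.08, adjusted p = 0.0019), as folds of FPKM + 1. The call in ClpX cKO held under all 20 alternatives (adjusted p 5.8e-04 to 0.031). The call in ClpP cKO was lost without any 1 library other than ClpX cKO 1 (adjusted p up to 0.15), and under scaling by each library's own total of gene reads the change was -0.05.

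Afg3l2 (ENSMUSG00000024527, chromosome 18, 67404767 to 67449166, minus strand) encodes the subunit that can also form the protease alone. It moved the other way. The 3 controls stood at 25.9, 24.6 and 24.2 FPKM, libraries of ClpP cKO at 27.3, 29.9 and 29.6, and those of ClpX cKO at 29.1, 30.6 and 33.4, again without overlap between controls and either knockout. It rose 1.16-fold in ClpP cKO (0.21 on the log2 scale, SE 0.07, adjusted p = 0.042) and 1.23-fold in ClpX cKO (0.30, SE 0.07, adjusted p = 0.0052). The larger rise was called under all 20 alternatives. The smaller one was lost without Control 1, 2 or 3, without ClpP cKO 2 or 3 and without ClpX cKO 2 (adjusted p up to 0.13), and it was 0.39 (adjusted p = 0.0065) under own-total scaling.

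Spg7 (ENSMUSG00000000738, chromosome 8, 123062942 to 123097760, plus strand) encodes paraplegin, which needs AFG3L2 or AFG3L1 to form the complex. The controls were at 26.4, 25.5 and 27.2 FPKM, ClpP cKO at 24.9, 27.6 and 28.1 and ClpX cKO at 26.3, 29.7 and 27.7. The groups overlapped, and the log2 changes of 0.03 (95% interval -0.14 to 0.19, adjusted p = 0.78) and 0.08 (-0.09 to 0.24, adjusted p = 0.36) did not pass. In ClpX cKO the change was 0.35 (adjusted p = 0.011) under quantile normalization and 0.29 (adjusted p = 0.012) under own-total scaling, so that the result for Spg7 turned on how libraries were scaled.

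Ratios of the deposited FPKM of 2 members within a library do not change when a library is multiplied by another factor, as own-total scaling does, though quantile normalization can move them. Afg3l1 stood at 0.569, 0.575 and 0.556 times the FPKM of Afg3l2 in the control libraries. The factor was 0.432, 0.38 and 0.429 in ClpP cKO, and 0.391, 0.314 and 0.297 in ClpX cKO. The ratio was 0.729-fold that of the controls in ClpP cKO and 0.585-fold in ClpX cKO, with all 3 knockout libraries below all 3 controls each time (exact permutation test, two-sided, p = 0.1, the smallest that 3 against 3 libraries can give; 0.171 adjusted over 12 ratio comparisons). Leaving out any 1 library kept the log2 difference between -0.49 and -0.40 in ClpP cKO and between -0.89 and -0.69 in ClpX cKO. Of the summed FPKM of the 3 m-AAA genes, Afg3l1 held 21.6 ± 0.693% in controls, 17.7 ± 1.04% for ClpP cKO and 14.9 ± 1.79% for ClpX cKO (SD, n = 3 libraries each). Afg3l2 held 38.1 ± 0.721%, 42.7 ± 0.651% and 44.8 ± 1.91%, and Spg7 40.3 ± 1.4%, 39.6 ± 0.643% and 40.3 ± 1.86%. The sum itself was 65.4 ± 1.47, 67.8 ± 3.35 and 69.3 ± 2.19 FPKM. The Afg3l1 share of every knockout library (at most 18.5%) lay below that of every control (at least 20.8%). The sums overlapped, with ClpP cKO 1 at 64 and ClpX cKO 1 at 66.8 FPKM against 67.1 in Control 1. Neither the shares nor the sums were tested. Spg7 to Afg3l2 was at 1.06 ± 0.057 in controls, 0.927 ± 0.019 for ClpP cKO and 0.9 ± 0.0695 for ClpX cKO, also without overlap with the controls (exact p = 0.1, 0.171 adjusted).

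**Figure D2:**
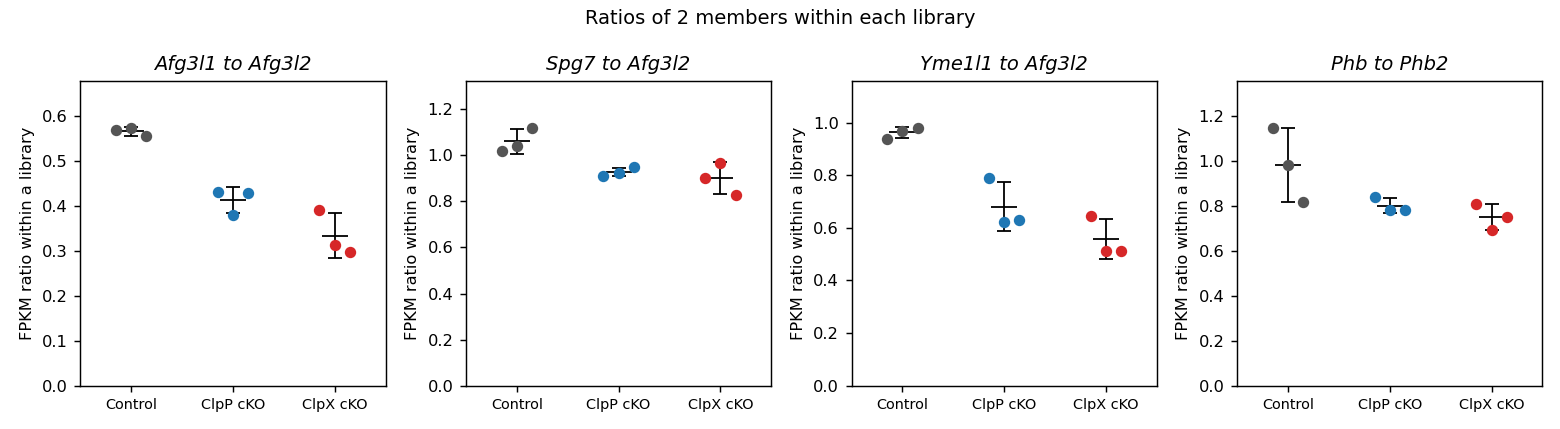
Ratios of the FPKM of 2 members within the same library (vertical axes), by group, with mean ± SD (n = 3). The ratios of Afg3l1 and of Yme1l1 to Afg3l2 lay between 0.297 and 0.432 and between 0.513 and 0.789 in the knockout libraries, below the controls at 0.556 to 0.575 and 0.939 to 0.981.

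Afg3l1 and Spg7 lie on the same strand of chromosome 8, and a gene model, Gm20388, spans both. It shares no annotated exon base with either in GENCODE M21 and was listed at 0 in all 9 libraries. Their promoter windows (RefSeq, GRCm38.p6, plus strand, 250 bases before to 50 after the transcript start) are shown because the 2 genes encode subunits of 1 complex and lie on 1 chromosome. The Spg7 window begins at 123065258, inside the gene span of the deposited values, which begins at 123062942. Capitals mark matches to GCGCANGCG, the core of the site of the mitochondrial regulator NRF1, on either strand.
Afg3l1, chr8:123477612-123477911: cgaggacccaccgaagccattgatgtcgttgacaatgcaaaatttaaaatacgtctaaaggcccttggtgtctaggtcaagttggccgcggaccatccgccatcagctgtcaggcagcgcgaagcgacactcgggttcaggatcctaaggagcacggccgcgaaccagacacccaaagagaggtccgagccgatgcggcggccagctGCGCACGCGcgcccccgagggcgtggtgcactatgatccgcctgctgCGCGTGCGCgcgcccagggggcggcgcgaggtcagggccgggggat
Spg7, chr8:123065258-123065557: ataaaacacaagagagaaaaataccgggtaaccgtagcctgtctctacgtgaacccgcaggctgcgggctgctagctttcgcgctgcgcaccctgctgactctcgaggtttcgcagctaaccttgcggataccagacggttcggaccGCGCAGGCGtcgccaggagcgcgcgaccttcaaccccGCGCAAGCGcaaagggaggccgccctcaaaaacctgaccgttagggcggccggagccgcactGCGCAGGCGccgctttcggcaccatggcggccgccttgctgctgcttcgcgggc
The Afg3l1 window held 2 matches and the Spg7 window 3, and 6.25% of 32851 promoter windows held any. Whether the changes of Afg3l1 and Spg7 differed was not tested. Such a match is a string of letters and not a measured site.

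Yme1l1 (ENSMUSG00000026775, chromosome 2, 23156369 to 23199260, plus strand), the only gene of the i-AAA protease, had the largest fall of the set in either knockout as deposited. Under quantile normalization the change of Afg3l1 was larger (-0.17 against -0.14 in ClpP cKO, where neither passed, and -0.38 against -0.28 in ClpX cKO). The controls were close together at 24.4, 23.9 and 23.8 FPKM. ClpP cKO was at 21.6, 18.6 and 18.7 and ClpX cKO at 18.8, 15.7 and 17.1, so that every knockout library lay below the controls. Against the controls the level was 0.823-fold in ClpP cKO (-0.28 on the log2 scale, SE 0.08, adjusted p = 0.027) and 0.727-fold in ClpX cKO (-0.46, SE 0.08, adjusted p = 0.0016). In ClpX cKO it was called under all 20 alternatives (-0.53 to -0.25). In ClpP cKO the call was lost without Control 1, 2 or 3 and without ClpP cKO 2 or 3 (adjusted p up to 0.091), and the change was -0.14 under quantile normalization and -0.10 under own-total scaling, neither of which passed. Set against Afg3l2 in the same library, Yme1l1 was at 0.963 ± 0.0214 in controls, 0.681 ± 0.0943 for ClpP cKO and 0.557 ± 0.0763 for ClpX cKO (exact p = 0.1 for each knockout, 0.171 adjusted).

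Htra2 (ENSMUSG00000068329, chromosome 6, 83051266 to 83055273, minus strand) had the lowest level and the largest rise of the 7 genes on the log2 scale. HTRA2 is a protease of the intermembrane space that can bind and cleave inhibitor of apoptosis proteins once released. The controls held 4.58, 3.64 and 4.36 FPKM, whereas ClpP cKO held 5.84, 7.5 and 6.19 and ClpX cKO 5.36, 7.78 and 7.7. All knockout libraries were above all controls, and ClpX cKO 1 was the lowest of its group. The rise was 1.44-fold in ClpP cKO (0.53 on the log2 scale, SE 0.15, adjusted p = 0.021) and 1.52-fold in ClpX cKO (0.60, SE 0.15, adjusted p = 0.0065), or 0.62 and 0.70 with a pseudocount of 0.1 in place of 1. In ClpP cKO the call was lost without Control 2 and without ClpP cKO 2 or 3 (adjusted p up to 0.076). The counts behind it were the smallest of the set, 164 to 401 reads per library, for which counting error alone is 7.81% at the fewest reads. Of its exon bases, 25.6% are also annotated to Aup1 and 18.2% to Loxl3 on the opposite strand, and no use of strand in the counting is stated. Aup1 lay between 19.2 and 20.6 FPKM in all 9 libraries, and Loxl3 between 0.303 and 1.3, with its highest control at 0.701.

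The prohibitins form their ring from alternating Phb and Phb2 subunits. Phb2 (ENSMUSG00000004264, chromosome 6, 124712336 to 124716950, plus strand) was measured at 13.1, 15.2 and 13.9 FPKM in controls. ClpP cKO libraries were at 14.5, 18 and 17.3, and ClpX cKO libraries at 16.3, 20.1 and 21.4. The controls overlapped ClpP cKO 1 but no ClpX cKO library. Phb2 rose 1.34-fold in ClpX cKO (log2 change 0.42, SE 0.12, adjusted p = 0.013, at most 0.049 over the 20 alternatives). In ClpP cKO its change of 0.22 (95% interval -0.05 to 0.49, adjusted p = 0.16) did not pass, except under own-total scaling, where it was 0.39 (adjusted p = 0.031), and with the replicate number as a block (adjusted p = 0.05).

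Phb (ENSMUSG00000038845, chromosome 11, 95666957 to 95680773, plus strand) stood at 15.1, 15 and 11.4 FPKM in controls, while ClpP cKO libraries had 12.2, 14.1 and 13.5 and ClpX cKO libraries 13.2, 13.9 and 16.1. Control 3 was the lowest of all 9 libraries, and the groups overlapped. The log2 changes of -0.05 (95% interval -0.32 to 0.22, adjusted p = 0.75) and 0.06 (-0.21 to 0.33, adjusted p = 0.68) did not pass, and both changed sign under several alternatives, with a range of -0.17 to 0.12 and of -0.08 to 0.27. Control ratios of Phb to Phb2 were 1.15, 0.983 and 0.82, those of ClpP cKO 0.842, 0.783 and 0.783, and those of ClpX cKO 0.81, 0.692 and 0.752. The ratio was below every control in ClpX cKO (0.769-fold, exact p = 0.1, 0.171 adjusted), by a margin that Control 3 sets, while ClpP cKO overlapped it (0.822-fold, exact p = 0.2, 0.267 adjusted). With 3 against 3 libraries this exact test cannot give a p under 0.1, so that it cannot decide whether the changes of Phb and Phb2 differed.

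The value of Phb is less certain than the others, because it has close copies. Of the 50-base windows of its principal transcript, 47.3% also occur, on either strand, in transcripts of other genes, 41.1% in Gm7666 alone. The share was 0 to 3.62% for the other members except Htra2 (23.8%, mostly Loxl3). Loxl3 overlaps Htra2 on the opposite strand, as Gm15884, the main match of Phb2, overlaps Phb2, so that these shares do not stand for copies. Gm7666 was at 10.5 to 13.1 FPKM in the controls, at 7.14 to 9.9 in ClpP cKO and at 5.58 to 7.59 in ClpX cKO. This copy fell by 0.45 (SE 0.15, adjusted p = 0.034) and by 0.75 (SE 0.15, adjusted p = 0.0023) on the log2 scale. The first did not pass without Control 2 or 3 or ClpP cKO 2 or 3 (adjusted p up to 0.11). Nor did it pass under own-total scaling (adjusted p = 0.13) or without a filter on low values (adjusted p = 0.079). Phb therefore held 75 to 83.2% of the reads of the pair in the controls and 80.8 to 89.5% in the knockouts. With the reads of both summed, the log2 change was -0.13 (SE 0.10, adjusted p = 0.3) in ClpP cKO and -0.08 (SE 0.10, adjusted p = 0.5) in ClpX cKO, an alternative chosen after seeing the data. Other genes that share windows with Phb were not summed. Fyb (16.6% of the windows) fell in ClpP cKO (-0.38, adjusted p = 0.012) and ClpX cKO (-0.37, adjusted p = 0.0058). Gm2245 (5.77%) and Gm11383 (1.14%) fell in ClpX cKO (adjusted p = 0.01 and 0.019). In ClpP cKO they were at -0.42 (adjusted p = 0.059) and -0.33 (adjusted p = 0.25) and did not pass. Neither passed between the knockouts (adjusted p = 0.48 and 0.27). How the authors' counting divided reads between Phb and its copy is not given in the sources used here.

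The prohibitin windows are shown because the 2 genes encode the partners of 1 ring. Capitals mark GCGCANGCG and, in addition, CCGGAAGT, a site of ETS factors such as GABPA, each on either strand.
Phb, chr11:95666707-95667006: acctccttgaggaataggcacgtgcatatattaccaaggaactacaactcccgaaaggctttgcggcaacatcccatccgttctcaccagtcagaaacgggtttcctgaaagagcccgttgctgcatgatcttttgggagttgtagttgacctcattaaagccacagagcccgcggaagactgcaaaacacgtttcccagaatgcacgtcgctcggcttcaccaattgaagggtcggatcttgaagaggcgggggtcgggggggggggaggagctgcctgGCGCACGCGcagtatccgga
Phb2, chr6:124712039-124712338: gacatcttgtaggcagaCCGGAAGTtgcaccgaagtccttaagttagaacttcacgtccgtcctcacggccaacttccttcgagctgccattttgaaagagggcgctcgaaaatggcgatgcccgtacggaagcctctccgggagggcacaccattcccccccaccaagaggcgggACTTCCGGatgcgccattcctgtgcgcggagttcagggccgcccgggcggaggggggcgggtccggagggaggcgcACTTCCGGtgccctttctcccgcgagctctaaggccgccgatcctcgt
The Phb window held 1 match to the first motif and 0 to the second. The Phb2 window held 3 matches to CCGGAAGT, which 3.89% of promoter windows hold, and 0 to the first. The Yme1l1 window held neither, and none of the 5 windows held TGATGNAA, a core of ATF4 sites present in 3.97% of windows. Of the other motifs searched, CCAAT (in 37.4% of windows) occurred once each in Yme1l1 and Phb, GGGCGG (35.7%) in 4 of the 5 windows and AAGATGGCG (1.4%) in none. RefSeq windows were matched for 5 of the 7 members, and the motifs were chosen after the windows had been read.

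**Figure D3:**
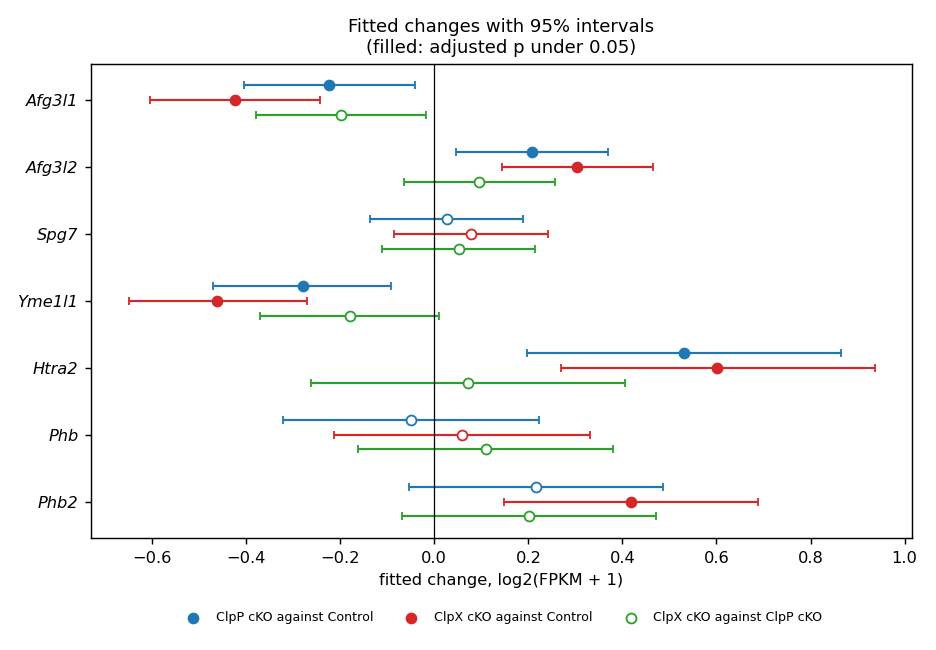
Fitted log2 changes (horizontal axis, log2 of FPKM + 1) of the 7 genes with 95% intervals in the 3 comparisons, filled where the adjusted p was under 0.05. Of the 14 changes against control, 9 are filled, and none of the 7 between the knockouts is.

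Whether the knockouts differed from each other was tested directly, since both share the same controls. No member passed between ClpX cKO and ClpP cKO in limma on log values or on voom weights, and 1, Afg3l1, fell under 0.05 before adjustment. Between the knockouts the ranges overlapped for all 7 members, and 29.9% of all tested genes had ranges that were apart. Over all genes, 18 were called, or 0.104%. Afg3l1 was at -0.20 (SE 0.08, 95% interval -0.38 to -0.02, adjusted p = 0.15), Yme1l1 at -0.18 (-0.37 to 0.01, adjusted p = 0.2) and Phb2 at 0.20 (-0.07 to 0.47, adjusted p = 0.29). For Afg3l2 the interval of the difference was -0.06 to 0.26, for Spg7 -0.11 to 0.21, for Htra2 -0.26 to 0.40 and for Phb -0.16 to 0.38. For Yme1l1 and Phb2, ClpX cKO 1 lay within the range of the ClpP cKO libraries. Without it, Afg3l1 passed at -0.27 (adjusted p = 0.029) and 4755 genes were called, and without Control 3 as well, Afg3l1 was again at -0.27 and 5162 genes were called.

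The scaling between libraries bears on these sizes. The per-million denominator implied by the FPKM values was 0.919 ± 0.028 times the sum of that library's gene reads in controls, against 1.05 ± 0.0037 for ClpP cKO and 1.07 ± 0.0174 for ClpX cKO (SD, n = 3). Scaling by own totals moved the median of all genes to 0.16 in ClpP cKO and 0.19 in ClpX cKO. The signs of Afg3l1, Afg3l2, Yme1l1, Htra2, Phb2 and Spg7 against control were the same under the 4 scalings tried, while that of Phb in ClpP cKO was not. The median-of-ratios factor was 1.01 in all 9 libraries, so that this scaling could hardly differ from the deposited values and is no separate check.

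**Figure D4:**
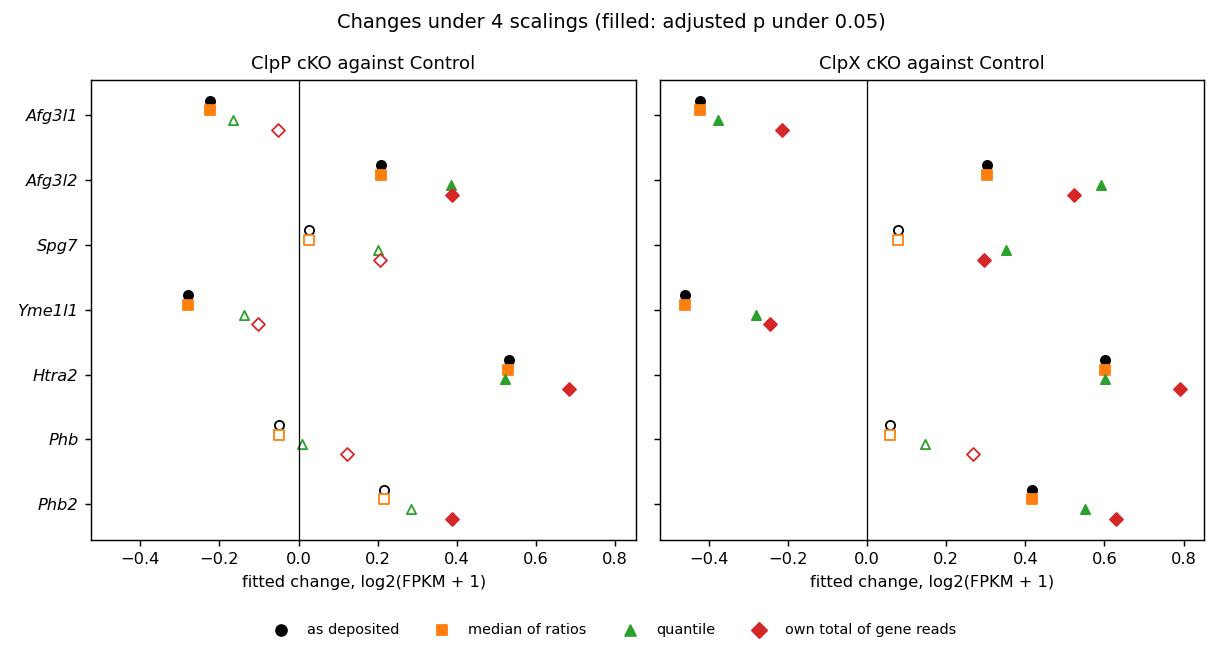
Fitted log2 changes (horizontal axes) of the 7 genes in ClpP cKO and ClpX cKO against control under 4 scalings of the libraries, filled where the adjusted p was under 0.05. In ClpP cKO, Afg3l1 moves from -0.22 as deposited to -0.05 under own totals, and Afg3l2 from 0.21 to 0.39. The median-of-ratios points nearly repeat the deposited ones, since that factor was 1.01 in every library.

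Levels were also compared between the genes, per length. In the controls, Spg7 (26.3 FPKM), Afg3l2 (24.9) and Yme1l1 (24) stood highest, with overlapping ranges between neighbours. Afg3l1 (14.1), Phb2 (14.1) and Phb (13.8) followed, overlapping as well, and Htra2 (4.19) was separate below them. In ClpX cKO the order was Afg3l2 (31.1), Spg7 (27.9), Phb2 (19.3), Yme1l1 (17.2), Phb (14.4), Afg3l1 (10.3) and Htra2 (6.94), and Afg3l1 was separate below Phb. This order depends on the length used. The deposited length equalled all exon bases of the gene in GENCODE M21 for every member but Afg3l2, and was 2.82 times the principal transcript for Phb2 but 0.997 times for Afg3l2. Per kilobase of the principal transcript, the controls were at 41.1 ± 1.31 for Spg7, 40.8 ± 0.561 for Yme1l1, 39.8 ± 3.04 for Phb2, 24.9 ± 0.901 for Afg3l2, 21.6 ± 3.26 for Phb, 15.9 ± 0.728 for Afg3l1 and 7.16 ± 0.832 for Htra2. Ratios of FPKM between groups do not depend on this choice, whereas changes of log2(FPKM + 1) can shift with it. Per principal transcript, Afg3l1 held 19.4%, 16% and 13.5% of the m-AAA sum in controls, ClpP cKO and ClpX cKO. Afg3l2 held 30.4%, 34.3% and 36%, and Spg7 50.2%, 49.7% and 50.5%. The near-equal shares of Afg3l2 and Spg7 given above, and the level of their ratio, thus depend on the deposited lengths.

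Genes whose course over the 9 libraries was most like that of a member were found by the root-mean-square difference in log2(FPKM + 1), each gene set to its own control mean. For Afg3l1 these were Exosc5 (difference 0.0429) and Fars2 (0.048), for Yme1l1 Cab39l (0.0374) and Uri1 (0.0422), and for Afg3l2 Tmem234 (0.038) and Atp5a1 (0.0383). For Spg7 they were Birc2 (0.0337) and Snrpa (0.0373), for Phb2 Fam83g (0.0413) and Arhgdia (0.0522), and for Phb Msi2 (0.0496) and 2610001J05Rik (0.0514). Htra2 had the most distant neighbours, Eid2 (0.0783) and Prpf19 (0.0863), with 17 protein-coding genes within 0.1, against 835 for Afg3l2 and 306 for Afg3l1. The differences are small for many genes, so that likeness over 9 libraries in 3 groups is a common property here.

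Other genes of inner membrane quality control also went both ways. Of 12 partners and neighbouring proteases, 3 rose, 5 fell and 4 did not pass in ClpP cKO (median log2 change -0.07), and 4 rose, 4 fell and 4 did not pass in ClpX cKO (median -0.03). Of all tested genes 44.7% and 65.6% were called, so that 8 of 12 is near the share of all genes in ClpX cKO. In ClpP cKO nothing is read from 12 chosen genes against the share of all genes. Under own-total scaling 4 rose and 1 fell, and 5 rose and 3 fell. Clpb, an ATP-driven disaggregase of the intermembrane space, had the largest change of the list. Controls had 59.2, 64.1 and 36.9 FPKM, ClpP cKO libraries 27.4, 23 and 25.7, and ClpX cKO libraries 19.3, 13.5 and 13.9. Control 3 was the lowest control and still above every knockout library. Clpb fell to 0.496-fold (-1.01, SE 0.21, adjusted p = 0.01) and 0.309-fold (-1.70, SE 0.21, adjusted p = 4.7e-04). Stoml2, a scaffold protein that binds prohibitins and YME1L, rose 1.4-fold (adjusted p = 0.01) and 1.52-fold (adjusted p = 0.0012), with controls at 3.42 to 3.83 FPKM and knockouts at 4.99 to 6.79.

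Immp2l, a subunit of the inner membrane peptidase that trims imported proteins, fell in both (-0.43, SE 0.12 and -0.68, SE 0.12), in ClpP cKO not without Control 1 or 2 or any 1 ClpP cKO library, nor under own-total scaling. Ghitm, an inner membrane protein that binds AFG3L2, fell by 0.30 and 0.47 on the log2 scale (SE 0.08 each). Its change was 0.01 in ClpP cKO and -0.04 in ClpX cKO under quantile normalization, and it did not pass in ClpP cKO under own-total scaling either, nor without Control 1 or 2 or ClpP cKO 2 or 3. Oma1, a stress-activated protease that cleaves OPA1, is given here although it was chosen after its values were seen. It was at 1.75 to 2.02 FPKM in controls, 2.07 to 2.95 for ClpP cKO and 2.46 to 3.31 for ClpX cKO, and rose in ClpX cKO (0.43, SE 0.12, adjusted p = 0.013) but did not pass in ClpP cKO (0.29, SE 0.12, adjusted p = 0.086), except under own-total scaling (0.41, adjusted p = 0.028).

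A further list held 12 genes for proteins that the members or other inner membrane proteases, such as PARL, cleave. In ClpP cKO, 4 rose, 2 fell and 6 did not pass (median 0.17). In ClpX cKO, 6 rose, 2 fell and 4 did not pass (median 0.27). Against the 44.7% and 65.6% of all tested genes, 6 and 8 of 12 called are no result about this list. Own-total scaling gave 8 that rose and 1 that fell in either, and quantile normalization none that fell. Stard7, a lipid carrier that PARL cleaves, had 11.2, 12.5 and 11.8 FPKM in controls. ClpP cKO libraries had 16, 16.9 and 16.5, and ClpX cKO libraries 16.2, 21 and 20.9, all above the controls. It rose 1.37-fold (adjusted p = 0.012) and 1.58-fold (adjusted p = 7.4e-04). Ttc19, a complex III assembly factor, rose 1.26-fold and 1.37-fold, and Prelid1, a phosphatidic acid carrier degraded by YME1L, rose 1.31-fold and 1.47-fold, in ClpP cKO not without Control 1 or ClpP cKO 2 or 3. Pink1, the kinase that marks damaged mitochondria, fell from 84.1 ± 1.9 FPKM to 63.4 ± 4.15 in ClpP cKO and 63.6 ± 3.46 in ClpX cKO (adjusted p = 0.0086 and 0.0015), but was at -0.05 and 0.08 under quantile normalization. Opa1, the fusion GTPase that YME1L and OMA1 process, chosen after its values were seen, was at 9.28 to 10.1 FPKM in the controls and 10.1 to 11.3 in the knockouts. Its log2 changes of 0.09 (SE 0.07, adjusted p = 0.29) and 0.14 (SE 0.07, adjusted p = 0.087) did not pass, whereas under own-total scaling they were 0.26 (adjusted p = 0.018) and 0.34 (adjusted p = 0.0024), and without ClpX cKO 1 the second passed at 0.17 (adjusted p = 0.049).

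Of the 4 inhibitor of apoptosis genes, whose proteins HTRA2 can antagonise, 1 rose in ClpP cKO and 3 in ClpX cKO, and none fell (median 0.24 and 0.54). Of all tested genes 20.7% and 32.1% rose, and from 4 genes nothing is read against these shares. Without Control 3 and ClpX cKO 1, 2 rose in ClpP cKO and 3 in ClpX cKO. Xiap, the caspase inhibitor, had 1.61, 1.68 and 1.93 FPKM in controls, 2.34, 2.09 and 2.36 in ClpP cKO and 2.55, 3.23 and 3.72 in ClpX cKO, so that the groups did not overlap. It rose in ClpX cKO (0.60, SE 0.12, adjusted p = 0.0024). Its change of 0.25 in ClpP cKO did not pass (adjusted p = 0.11), though it did without ClpX cKO 1 (adjusted p = 0.049) and under own-total scaling (0.37, adjusted p = 0.04). Birc3 rose in ClpX cKO (0.78, SE 0.15, adjusted p = 0.0021), from 0.946 ± 0.0951 to 2.37 ± 0.627 FPKM. Birc6 rose in both (0.35 and 0.49, SE 0.10 each), in ClpP cKO not without Control 1 or 2 or ClpP cKO 2 or 3. Of 7 immune cell markers tested in the same libraries, 3 rose in ClpP cKO and 7 in ClpX cKO (median 0.35 and 0.77).

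**Figure D5:**
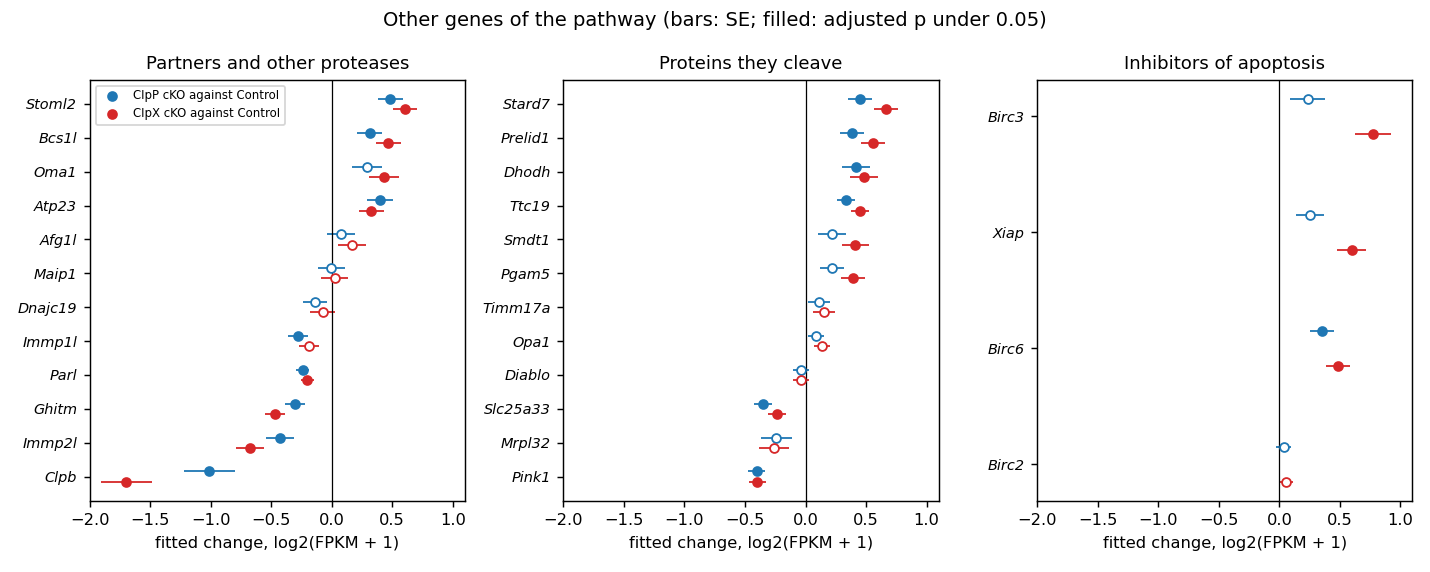
Fitted log2 changes (horizontal axes, bars are SE) of 12 partners and other proteases, 12 cleaved proteins and 4 inhibitors of apoptosis against control, filled where the adjusted p was under 0.05. Clpb lies lowest at -1.01 in ClpP cKO and -1.70 in ClpX cKO, and Stard7 highest among the cleaved proteins at 0.45 and 0.66.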

How the data were processed

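RNA was sequenced in 9 libraries, 3 per group. The authors deposited 1 table of FPKM per gene, with gene lengths and GRCm38 positions per the file headers; the builds GRCm38 and mm10 are named in the submitters' processing notes. Aligner and counter are not given in the sources used here. Multiplied by gene length, the FPKM values of a library were whole multiples of 1 smallest step in 100% of cases (within 0.01 of a step), and these multiples were taken as reads per gene.

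A gene entered the fit if its FPKM averaged 1 or more over the 9 libraries, which 17266 did. Values were taken as log2(FPKM + 1) and fitted by limma 3.58.1 under R 4.3.3 in a single model of the 3 groups, with a mean-variance trend. Tests were two-sided, with Benjamini-Hochberg adjustment over all tested genes, and all 7 members passed the filter. A fold is that of FPKM + 1, which understates the change of low genes. Ratios within a library used exact permutation tests. Libraries of 1 group differed by more than sampling noise (chi-square per degree of freedom 3.58 to 21.2 over genes). Python 3.11.15, pandas 2.3.3, scipy 1.17.1 and matplotlib 3.10.9 did the rest.

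All 7 members were named, with Clpp, Clpx, up to 4 called genes of each pathway list with the smallest adjusted p, and the 2 protein-coding genes most alike in course to each member. The members, lists and tests were chosen with earlier results of these data known. Alternatives were other pseudocounts, filters and scalings, voom on the reads, protein-coding genes only, the 6 libraries compared, a replicate block and leaving out each library. Added after seeing the data were leaving out Control 3 and ClpX cKO 1, summing reads of Phb and its copy, and another gene length.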

Additional observations from a re-analysis of the deposited data

How the results depend on the processing

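In ClpX cKO against control, the calls of Afg3l1, Afg3l2, Yme1l1, Htra2 and Phb2 held under all 20 alternatives, with the same direction. Among these, median-of-ratios scaling was bound to give nearly the main fit, its factor being 1.01 in every library. In ClpP cKO none of the 4 called members changed direction, but without a filter on low values none of them passed (adjusted p 0.051 to 0.089). The number of genes called in ClpP cKO was 7722 and 3637 to 8735 with 1 library left out, lowest without ClpP cKO 2 (3637), ClpP cKO 3 (4034), Control 1 (4164) and Control 2 (4846). In ClpX cKO it was 11326, and 6871 when a mean FPKM of 5 was required, with 9404 genes tested. Between the knockouts it was 18, and 40 by voom, 88 in the fit of the 6 libraries, 0 to 4755 with 1 library left out (453 without Control 3) and 5162 without Control 3 and ClpX cKO 1; the cause was not tested. The share of calls that were increases in ClpP cKO was 46.3%, 60.2% under quantile normalization and 71.5% under own-total scaling, and in ClpX cKO 49%, 57.5% and 63.6%.

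Several changes near 0 turned sign. Phb in ClpP cKO was at 0.008 under quantile normalization and 0.123 under own-total scaling, with -0.173 to 0.015 when leaving out 1 library. Phb in ClpX cKO was at -0.007 without Control 3 and ClpX cKO 1 and at -0.079 with its copy summed, with -0.064 to 0.123 when leaving out 1 library. With 1 library left out, Spg7 ranged from -0.006 to 0.079 in ClpP cKO and from -0.001 to 0.091 between the knockouts, Htra2 between the knockouts from -0.008 to 0.224, and the log2 ratio of Spg7 to Afg3l2 between the knockouts from -0.099 to 0.012. Ghitm in ClpP cKO was at 0.012 and Pink1 in ClpX cKO at 0.075 under quantile normalization, and Pink1 between the knockouts was at -0.037 without Control 3 and ClpX cKO 1, or -0.049 to 0.04 with 1 library left out. The causes were not tested.

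The titles number the libraries 1 to 3 in each group. Same-numbered libraries had correlations of their deviations from the group mean between -0.07 and 0.23, others between -0.24 and 0.11, and not every library correlated best with its own number, so the numbers were not taken to pair the samples. With the replicate number as a block, 7845 and 11291 genes were called in ClpP cKO and ClpX cKO, and 1 between the knockouts. Under the block Afg3l1 (adjusted p = 0.053) and Afg3l2 (adjusted p = 0.057) did not pass in ClpP cKO, Phb2 did (adjusted p = 0.05), and no other member's call changed. Depth limits Htra2 most, at 164 reads in 1 library, and intervals from reads cover counting error only.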
